A study of Saccharomyces cerevisiae with 76 samples.

Results

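Of 948 Abf1 peaks in Saccharomyces cerevisiae, 275 had their summit in the space between a pair of divergent genes, genes that are transcribed away from each other and whose start codons both face that space. A peak was counted here when its summit lay outside every protein-coding open reading frame (ORF) and every tRNA gene, the nearest ORF on the left was on the minus strand and the nearest on the right on the plus strand. The other 673 peaks comprised 269 between tandem genes, which point the same way, 23 between convergent genes, 138 inside ORFs, 231 inside tRNA genes and 12 beyond the last ORF of a chromosome.

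The peaks came from chromatin immunoprecipitation sequencing (ChIP-seq) in an anchor-away time course, in which rapamycin draws a tagged nuclear protein out to the ribosome-bound anchor. The values described here were measured before depletion (t = 0), after 90 min in DMSO with no rapamycin. The haploid MATalpha strain BY4742 carried tor1-1 and fpr1del, the anchor RPL13A-FKBP12-NAT and Abf1-FRB-yEGFP-3V5-hphMX4, so all Abf1 in these cells was the tagged form, and it was precipitated with an anti-V5 antibody. The authors called peaks once on 3 IP libraries from independent colonies pooled against their 3 inputs, so no value below has a spread between replicates, no test was run, and intervals cover counting or sampling of peaks only. The untagged strain and the later time points were not analysed here.

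Abf1 is an essential general regulatory factor of budding yeast, one of a few abundant sequence-specific proteins that bind promoters and help keep them free of nucleosomes. It binds a motif of TC and ACG parted by 7 less constrained bases. In a divergent promoter a single depleted stretch of chromatin can serve a gene on each side.

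The Abf1 motifs under some of the strongest and weakest divergent summits, picked after their values were seen, are shown first. Among divergent peaks, fold enrichment went with features of these sequences and not with the distance to the start codons or the length between the genes. Each sequence is from the R64 reference genome (sacCer3) and runs 5′ to 3′ along the strand of the motif, with the 13 motif positions in capitals and the base 8 before the motif midpoint as the fifth letter. The first 4 motifs lay under some of the highest peaks and had G or C there, and the next 4 lay under weak peaks and had A or T.
KRE1/VNX1, chrXIV:34566-34590, plus strand: ggaactGTCGCTTTATACGgtgagg
RIX7/IRC19, chrXII:73287-73311, plus strand: gaacctGTCACTATCGACGaacatc
TAO3/MET18, chrIX:113422-113446, minus strand: ggttgtATCACTAACCACGaaacga
UBR2/SNF7, chrXII:194267-194291, plus strand: atatgcATCATTTTATACGattcat
ATP23/YNR021W, chrXIV:668211-668235, minus strand: ccaattATCATTTATGACGatgcga
PZF1/RPO26, chrXVI:911110-911134, minus strand: ttaaatATCATACTATACGaataat
GEP3/NOC2, chrXV:727335-727359, plus strand: gtagttATCATCTTCGACGagtttt
CDC3/NKP2, chrXII:764311-764335, plus strand: caccatATCATTACACACGtagatc

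The next 3 sequences are exceptions to that pattern. The NMD2/YHR078W motif had T at the fifth letter under the second-highest divergent peak, and the RPF2/NUP133 summit lay over motifs on both strands whose midpoints were 2 bp apart, both with A there.
NMD2/YHR078W, chrVIII:255936-255960, minus strand: ataattATCACTTGATACGaattga
RPF2/NUP133, chrXI:592680-592704, minus strand: aaatatATCGTTTTATACGatttga
RPF2/NUP133, chrXI:592678-592702, plus strand: tttcaaATCGTATAAAACGatatat

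The fold enrichment of a peak is the fragment pileup of the IP at the summit over the background estimated from the input. Over the 275 divergent peaks it ranged from 2.02 to 68.2, with a median of 5.28 (exact 95% interval 4.45 to 6.61) and quartiles of 2.96 and 18.3. A fold enrichment of at least 4 was reached by 166 divergent peaks, or 60.4% (95% Wilson interval 54.5 to 66.0), beside 44.4% of all 948 peaks. At least 10 was reached by 98 divergent peaks (35.6%), beside 24.4% of all peaks, and at least 20 by 60 divergent peaks (21.8%), beside 13.9% of all peaks. The highest peak of the whole list was a divergent one. The 109 divergent peaks under 4 were kept here. For its off-rates the paper used only peaks of at least 4. It states that this limit also removes weak apparent signal over ORFs and tRNA genes, a known ChIP artefact.

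The divergent and tandem peaks differed little in strength beside the width of their intervals. The median fold enrichment was 5.28 for divergent and 5.74 for tandem peaks, a difference of −0.12 on the log2 scale with an interval of −0.58 to 0.34 from the intervals of both medians. The shares at or above 4 were 60.4% for divergent and 61.3% for tandem peaks. Peaks in other places were weaker. The median was 3.15 inside ORFs, 2.95 inside tRNA genes and 2.64 between convergent genes, and only the 12 peaks beyond the last ORF stood higher, with a median of 17.1. Against all 673 other peaks, whose median was 3.28, the divergent median was 0.68 higher on the log2 scale (interval 0.39 to 0.97).

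**Figure D1:**
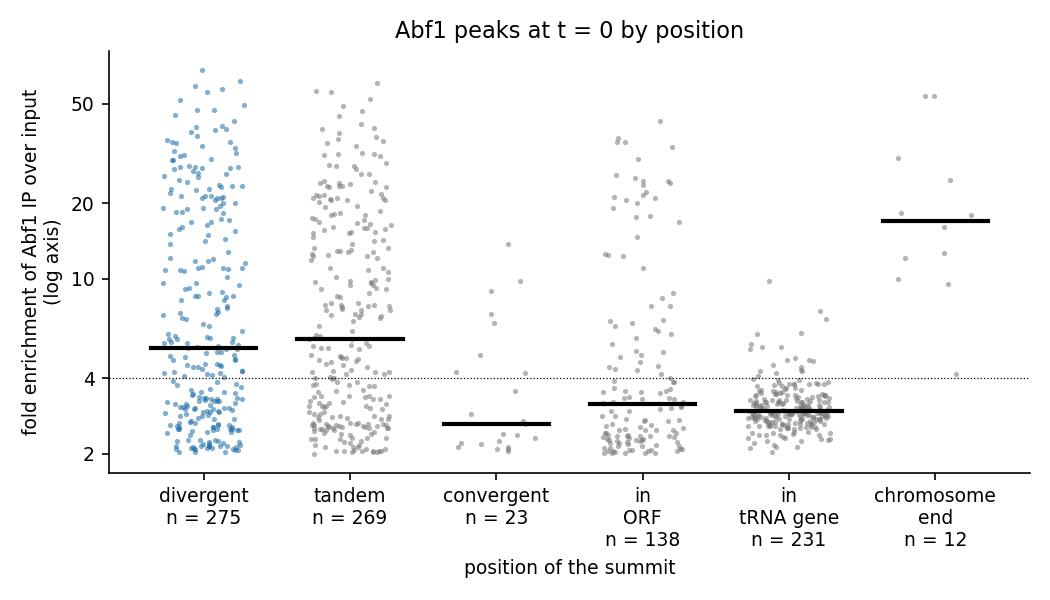
Fold enrichment on a log axis for each of the 948 peaks by the position of the summit, with divergent peaks on the left in blue, bars at the medians and a dotted line at 4. The divergent and tandem peaks span nearly the same range, with medians of 5.28 and 5.74, and the 231 tRNA gene peaks cluster about 2.95.

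The counting error of a single peak was small beside the range of fold enrichment over the divergent peaks. The pileup recovered from the fold enrichment and the p-value was between 265 and 10164 fragments at the divergent summits, over backgrounds of 125 to 165. The 95% Poisson interval of a single peak, which covers the counting of IP fragments only, spanned a fold enrichment of 4 for 14 of the 275 peaks. Just below that line were RPS28A/GLN4 at 3.81, ATP23/YNR021W at 3.87 and ERV14/PRM8 at 3.91. Just above it were SRB2/NCP1 at 4.03, PIR5/HSP150 at 4.09 and PKP1/GVP36 at 4.13.

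The highest divergent peak lay between HEM2, which encodes an enzyme of heme synthesis, and YGL039W. It had a fold enrichment of 68.2 (Poisson interval 66.9 to 69.5), 2669 bp from the HEM2 start codon, 737 bp from that of YGL039W and 19 bp from the edge of the tRNA gene SUP54, and it held 2 motifs. NMD2/YHR078W followed at 61.8, where NMD2 encodes a factor of nonsense-mediated mRNA decay. KRE1/VNX1, a cell wall glucan gene beside a vacuolar ion exchanger, had 58.7. MCK1/MRPS18, a protein kinase gene beside one for a mitochondrial ribosomal protein, had 57.3. RIX7/IRC19 had 55.9, with RIX7 encoding an ATPase of large ribosomal subunit maturation. At the last 3 of these pairs the summit lay at most 328 bp from either start codon, and at NMD2/YHR078W it lay 182 and 422 bp from them.

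TAO3/MET18 had 51.8, EGD1/PMA2 49.2, UBR2/SNF7 47.1 and YIL055C/YIL054W 47.0. MET18 acts in iron-sulfur protein assembly, EGD1 encodes a subunit of the nascent polypeptide-associated complex, PMA2 a plasma membrane proton pump and SNF7 an ESCRT-III subunit. YKT6/MIA40, a SNARE gene beside one for mitochondrial protein import, had 45.0 from a region of 286 bp. SUI1/SLA2, which pairs translation initiation factor eIF1 with an endocytic adaptor, had 42.6. YDL012C/GRX6 had 40.7, IDH1/NCE103 40.3, RPF2/NUP133 39.8 and LCB1/PRC1 39.4. In these IDH1 encodes a subunit of isocitrate dehydrogenase, NCE103 carbonic anhydrase, NUP133 a nuclear pore protein, LCB1 a subunit of serine palmitoyltransferase and PRC1 vacuolar carboxypeptidase Y.

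At the bottom of the list, CDC3/NKP2 had a fold enrichment of 2.02 (1.80 to 2.26), RTA1/RPS0A 2.03, GEP3/NOC2 2.03, ALG5/NEW1 2.06 and 1 of the SEC59/BUD22 summits 2.07. CDC3 encodes a septin and RPS0A a protein of the small ribosomal subunit. CDC3/NKP2 held 2 motifs and GEP3/NOC2 held 1, while RTA1/RPS0A, ALG5/NEW1 and SEC59/BUD22 held none.

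The summits stood back from both start codons. The distance to the nearer start codon had a median of 194 bp (exact 95% interval 177 to 220) and quartiles of 143.5 and 294.5 bp, and the distance to the farther one a median of 455 bp with quartiles of 320 and 696 bp. Of the 275 summits, 263 were at least 100 bp from both start codons, 129 were 100 to 199 bp from the nearer one and 68 were 300 bp or more from it. The tandem summits lay a median of 229 bp from the start codon they face. The left gene was the nearer one at 133 divergent summits and the right gene at 142.

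Along the region, the summit lay a median of 33.5% of the intergenic length from the nearer start codon, with quartiles of 24% and 42.4%, and 95 of the 275 summits (34.5%) fell in the middle 20% of the length. Only 59 summits were within 300 bp of both start codons. In the 27 regions under 300 bp the nearer distance had quartiles of 102 and 130.5 bp and the farther one of 134 and 158.5 bp, so that most of these summits were near the centre. In the 69 peaks of regions of at least 1000 bp the nearer distance had a median of 391 bp and the farther one of 1090 bp.

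**Figure D2:**
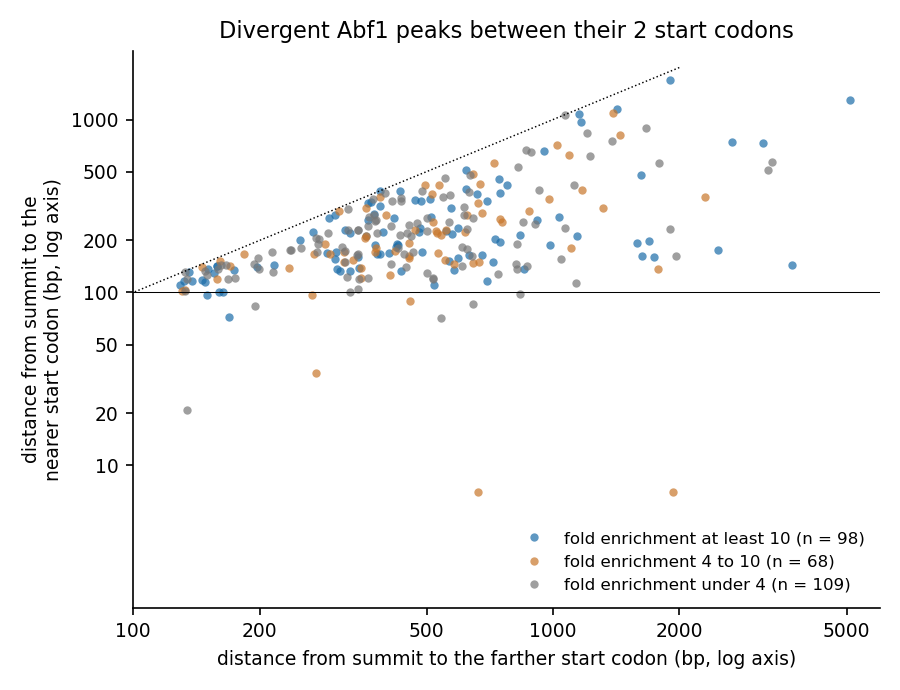
Distance in bp from each of the 275 divergent summits to its farther start codon (x) and its nearer one (y), both on log axes, coloured by fold enrichment, with the dotted line where both are equal and the solid line at 100 bp. All but 12 points lie at 100 bp or above, and the 3 ranges of fold enrichment are mixed throughout.

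The summits closest to a start codon were at YIL134C-A/FLX1 and YBR292C/VBA2, each 7 bp from it, with fold enrichments of 5.46 and 9.64. ATP23/YNR021W followed at 21 bp with 3.87 and DMA1/COX23 at 34 bp with 8.19. Those farthest from the nearer start codon were FLO9/GDH3 at 1695 bp with 13.8, RNH203/TAR1 at 1292 bp with 10.8, YFL064C/COS4 at 1156 bp with 23.2 and YDR098C-A/BMH2 at 1089 bp with 7.53. All 4 of the farthest and 3 of the 4 closest were above the median of 5.28. YDR098C-A is an ORF of a Ty element, one of 6 divergent peaks with such a neighbour. In all, 5 of the 275 divergent summits lay in annotated telomeric regions and were kept here. The paper left telomeric peaks out of its selected sites because several of their other features differed.

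Among divergent peaks, no order of fold enrichment by distance or length was seen. Across the 275 peaks, which share their libraries, the Spearman correlation of fold enrichment with the nearer distance was −0.02 and with intergenic length 0.00, given here as a description. The median fold enrichment was 5.09 for summits 100 to 199 bp from the nearer start codon and 5.75 for those at 300 bp or more. It was 4.42 in regions of 400 to 499 bp, 8.21 in those of 500 to 599 bp and 4.73 in those of 600 to 799 bp, with no order by length. The 60 peaks at 20 or above had a median nearer distance of 188 bp, and the 109 under 4 had one of 191 bp.

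The 275 peaks fell in 264 of the 1527 divergent regions of the genome, or 17.3% (Wilson 95% interval 15.5 to 19.3). Of 2828 tandem regions 9.30% held a summit (8.28 to 10.4), and of 1513 convergent regions 1.32% (0.857 to 2.03). A divergent region has a start codon at each end and a tandem one has a start codon at 1 end. Per start codon that faces the region, there were 9.0 divergent summits per 100 (8.04 to 10.1) and 9.51 tandem summits per 100 (8.49 to 10.6), so the intervals overlapped.

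Divergent regions with a summit were longer than those without. Their median length was 669.5 bp (per region) in the 264 with a summit, against 477 bp in those without. The order was the same for tandem regions, at 467 against 396 bp, and for convergent regions, at 854 against 229 bp. These shares are per region, and only a divergent region has a start codon at each end. Under 200 bp the tandem share was the higher one, with overlapping intervals. It was 6.49% of 231 tandem regions (3.97 to 10.4), against 0.909% of 110 divergent ones (0.161 to 4.97). Of regions of 200 to 299 bp, 8.58% of divergent and 7.10% of tandem ones held a summit. At 300 to 399 bp the shares were 9.60% and 8.98%. From 400 bp the divergent share was the higher one in each range of length, with intervals that were apart at 400 to 499 and at 600 to 799 bp and overlapped in the other ranges. Summits were in 21.9% of 146 divergent regions of 400 to 499 bp (16 to 29.3), against 8.37% of 418 tandem regions of that length (6.08 to 11.4). At 600 to 799 bp the shares were 25.5% of divergent regions (20.6 to 31) and 8.42% of tandem regions (5.68 to 12.3). Above that the divergent share stayed between 21.3% and 26%. Per length of sequence the order was another one. Divergent regions held 0.339 summits per kb at 200 to 299 bp and 0.483 at 400 to 499 bp, but 0.211 at 1000 to 1499 bp and 0.115 at 1500 bp or more. Tandem regions also held fewer at the greatest lengths, with 0.281 at 200 to 299 bp and 0.0553 at 1500 bp or more.

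**Figure D3:**
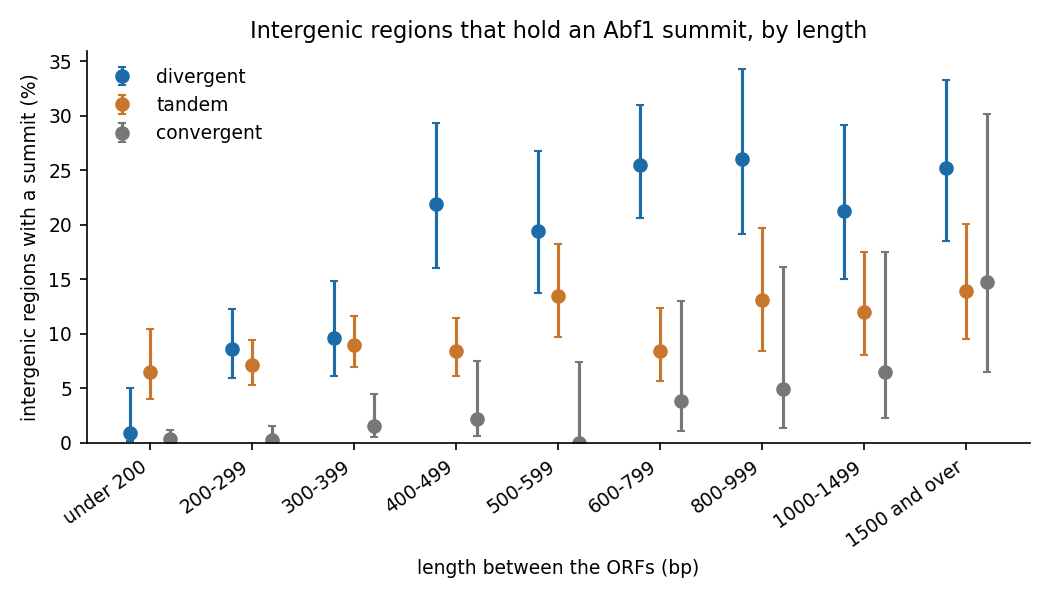
Share of intergenic regions in percent that hold at least 1 Abf1 summit, by the length between the ORFs in bp, for divergent (blue), tandem (orange) and convergent (grey) regions, with 95% Wilson intervals. The divergent share is 8.58% at 200 to 299 bp and 25.5% at 600 to 799 bp, where the tandem share is 8.42%.

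The shortest divergent region with a summit was the 154 bp between ATP23 and YNR021W, and the only one under 200 bp, of 110 such regions. PKP1/GVP36 followed with 232 bp and 4.13, PZF1/RPO26 with 234 bp and 3.32, and RNA1/TAF9 with 235 bp and 4.15. PZF1 encodes the transcription factor TFIIIA, RPO26 a subunit shared by the nuclear RNA polymerases and RNA1 the GTPase-activating protein of Ran. At these 4 the summit was 21 to 134 bp from each start codon. The longest was the 6381 bp between RNH203 and TAR1, a gene within the ribosomal DNA, with a summit of 10.8. SRY1/JEN1 spanned 3894 bp, VOA1/CLB1 3849 bp with a peak of 25.7 lying 144 bp from the VOA1 start codon, and TYE7/REV1 3758 bp with 3.64. JEN1 encodes a lactate and pyruvate transporter and CLB1 a mitotic cyclin.

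Of the 264 regions, 255 held 1 summit, 8 held 2 and 1 held 4. The pairs of summits differed in how alike they were. At HUA1/YTA7 the summits lay 347 bp apart with 20.9 and 21.9, each near its own start codon at 135 and 235 bp. At SWI4/LSM4 they lay 610 bp apart with 29.8 and 2.09, at SRY1/JEN1 2595 bp apart with 24.8 and 2.37, and at UBR2/SNF7 690 bp apart with 47.1 and 6.03. The SEC59/BUD22 region of 2129 bp held the 4 summits, at 2.15, 2.5, 2.07 and 2.93, none with an Abf1 motif. It also holds the snoRNA genes SNR72 to SNR78, and the summit at 2.5 lay inside SNR76.

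Within 100 bp of the summit, 247 of the 275 divergent peaks held an Abf1 motif, or 89.8% (Wilson 85.7 to 92.9), beside 66.5% of all 948 peaks and 90.7% of tandem peaks. The motif was scored with a matrix of 15 positions built from 403 of the peaks themselves, so that a high share was built in. In windows of the same 201 bp the matrix matched 14.7% of 1154 divergent regions without a summit, read at their midpoints (of 1263 such regions, those shorter than the window were left out), and 10.9% of 60051 windows tiled along the genome. Among divergent peaks the share was 95.8% at a fold enrichment of at least 4 (159 of 166) and 80.7% below 4 (88 of 109). The 403 peaks behind the matrix were all at 4 or above, so part of this contrast was built in. The midpoint of the best motif was within 20 bp of the summit at 180 of the 247 peaks and within 50 bp at 235.

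The motif has a direction, but it had no preferred one between the genes. The best motif pointed to the nearer start codon at 126 of 247 peaks, or 51% (44.8 to 57.2). The median fold enrichment was 6.55 for the 126 that pointed to the nearer start codon and 5.07 for the 121 that pointed to the farther one, with overlapping intervals of 5.26 to 11 and 4.21 to 8.21. Overlapping matches, such as those on both strands at RPF2/NUP133, counted as separate motifs. With that count, the median fold enrichment was not higher at summits with 2 or more motifs. It was 5.79 for 189 summits with 1 motif and 5.68 for the 58 with 2 or more, and 2.49 for the 28 with none.

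The base 8 before the midpoint, which the matrix does not cover, went with the strength of divergent peaks. The paper, citing earlier work, states that Abf1 cross-links efficiently only where this base is G or C. It holds that low signals at other sites likely came from cytosolic Abf1 that rebound during ChIP. The part of cross-linking in the values below was not tested. Where all motifs at a summit had G or C at this base, the median fold enrichment was 19.2 over 83 peaks (exact 95% interval 13.8 to 23.5), and where all had A or T it was 3.70 over 133 peaks (3.25 to 4.45). At least 4 was reached by 88.0% of the G or C peaks and 47.4% of the A or T peaks, and at least 20 by 38 and 10 of them. In summits with 1 motif the medians were 20.0 for G, 17.9 for C, 3.96 for A and 3.46 for T. The ranges overlapped, from 2.09 to 58.7 for G or C and from 2.02 to 61.8 for A or T. The tandem peaks had the same pattern, with medians of 15.2 over 92 peaks with G or C and 3.75 over 131 with A or T.

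The score within the motif added to this. Among peaks with G or C before the motif, the Spearman correlation of fold enrichment with the best score was 0.65 over 83 peaks. Among those with A or T it was 0.51 over 133. The peaks share their libraries. The matrix was built on peaks at 4 or above, these partly among them, so part of both correlations was built in. At scores of at least 95% of the matrix range, all 26 peaks with G or C were at 4 or above, with a median of 30.5, while 45 of 73 with A or T were, with a median of 4.58. High peaks without G or C did occur. NMD2/YHR078W at 61.8, YIL055C/YIL054W at 47.0 and RPF2/NUP133 at 39.8 had only A or T, with best scores of 97.3% to 97.8% and a T just before the midpoint. With T at that position the median of A or T peaks was 4.29 (89 peaks), and without it 3.22 (44 peaks).

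**Figure D4:**
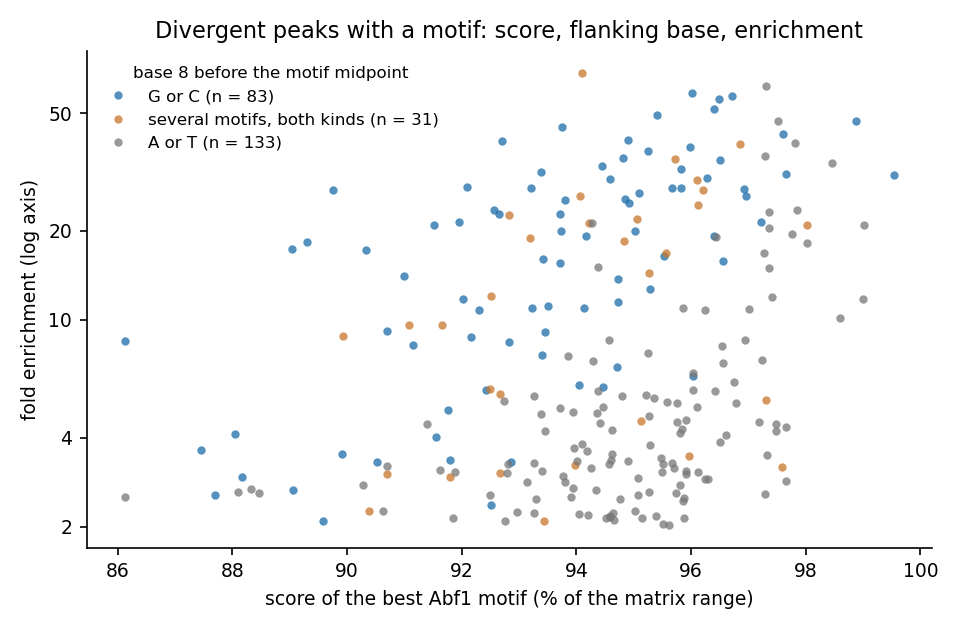
Fold enrichment on a log axis against the score of the best motif in percent of the matrix range for the 247 divergent peaks with a motif, coloured by the base 8 before the midpoint (G or C in blue, several motifs of both kinds in orange, A or T in grey). The blue points have a median of 19.2 and the grey ones of 3.70, and above 97% the grey points also reach high values.

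Seen from the sequence, not every motif in a divergent region had a peak. The 1527 divergent regions held 993 motifs, and 328 of them (33.0%) lay within 100 bp of a summit. Of motifs scoring 85% to 90%, 17.7% with G or C and 6.51% with A or T at the base 8 before the midpoint were near a summit. From 90% to 95% these shares were 88.4% (61 of 69) and 41.4% (96 of 232). At 95% or more they were 100% (30 of 30, Wilson lower bound 88.6) and 82.5% (85 of 103). The matrix was built from matches near summits of this same list, so part of the rise with score was built in. Motifs of at least 95% with no summit within 100 bp included those between SLC1 and LHP1, between RPN6 and PMT1 and between HSP82 and YAR1, which were chosen for mention after their values were seen. The last of these regions held a summit of 2.77 elsewhere, without a motif.

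The 28 divergent summits without a motif were mostly weak, 21 of them under 4. The highest was YMR001C-A/MIX17 at 23.7, then RNH203/TAR1 at 10.8, YKL063C/MSN4 at 9.42, MBF1/BUD7 at 7.36 and MIM1/LAG2 at 6.91. MSN4 encodes a stress-response transcription factor and MBF1 a transcriptional coactivator. At 3 of these the best partial match scored just under the threshold, and 2 are shown, with the 13 motif positions in capitals.
YMR001C-A/MIX17, chrXIII:271999-272023, plus strand: tcatgtGTGCTTTTATACGgcaaac
MBF1/BUD7, chrXV:877896-877920, plus strand: tgttccATGACGTTCTACGtggttc

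These scored 83.1% and 84.7% of the matrix range, and the best match at YKL063C/MSN4 scored 83.6%. Those at RNH203/TAR1 and MIM1/LAG2 scored 74.5% and 74.2%. The MIM1/LAG2 summit was 11 bp from a tRNA gene. The 231 peaks inside tRNA genes had a motif in only 9.96% of cases and a median of 2.95; their part in the signal at such summits was not tested. In all, 9 divergent summits had a tRNA gene within 500 bp.

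Other promoter sequences near the summits were counted in the same 201 bp windows, on both strands. The E-box CACGTG, bound by Cbf1, a factor of sulfur metabolism and centromeres, occurred in 28 of 275 divergent windows, or 10.2% (7.14 to 14.3). It occurred in 2 of 269 tandem windows (0.743%), in 3.90% of those 1154 divergent regions without a summit (45 of them), in 4.11% of all peak windows and in 1.49% of genome windows. It was singled out after 7 sequences had been counted. All 28 windows also held an Abf1 motif, 7 held 2 or more E-boxes, and 25 held one that did not overlap an Abf1 motif. Their median fold enrichment was 3.49, against 5.52 in the other 247.

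IDH1/NCE103, among the 15 highest divergent peaks, held 3 E-boxes beside its 2 Abf1 motifs. Its window of 161 bases is shown because it is the highest peak with an E-box, and the capitals mark CACGTG.
IDH1/NCE103, chrXIV:559390-559550, plus strand: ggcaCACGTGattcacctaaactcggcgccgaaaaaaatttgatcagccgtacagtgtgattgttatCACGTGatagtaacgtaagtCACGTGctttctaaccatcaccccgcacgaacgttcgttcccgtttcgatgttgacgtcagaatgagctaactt

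BET3/MET1 at 30.1 and MET5/IML1 at 4.54, mentioned after their values were seen, also had an E-box, and MET1 and MET5 act in sulfate assimilation. The share of sulfur genes among all 28 windows with an E-box was not counted. The other sequences differed less. The Reb1 site TTACCCG, of another general regulatory factor, was in 5.45% of divergent, 2.97% of tandem and 6.67% of empty divergent windows, and 1.24% of genome windows. The Gcn4 site TGACTCA was in 2.91% of divergent and 1.49% of tandem windows, the PAC core GATGAG of ribosome biogenesis genes in 14.5% and 12.3%, CCAAT in 31.6% and 30.1%, TATAAA in 29.1% and 36.1%, and a run of AAAAAAA in 38.5% and 39.8%. In the genome windows Gcn4 was in 1.73%, GATGAG in 11%, CCAAT in 41.6%, TATAAA in 20.7% and AAAAAAA in 17.6%. The GC content within 50 bp of the summit had a median of 37.6% at divergent and 36.6% at tandem peaks, and 36.6% at the midpoints of empty divergent regions.

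Beside the 1527 divergent regions there were 3054 gene starts, of which 528, or 17.3%, faced a region with a summit. Genes of the transcription and translation machinery were compared with that share, as lists of known function. Of 56 ribosome biogenesis genes with a divergent start 17 faced a summit (30.4%, Wilson 19.9 to 43.3), with a median fold enrichment of 7.32 and 12 of 17 peaks at 4 or above, beside 60.4% of all divergent peaks (166 of 275). The highest were RIX7/IRC19 at 55.9, RPF2/NUP133 at 39.8, RSM19/DBP6 at 34.8, BRX1/MDM20 at 26.3 and RPC25/LTV1 at 21.5. Of 44 mitochondrial ribosomal protein genes 13 did (29.5%, 18.2 to 44.2), with a median of 6.95. Here MCK1/MRPS18 had 57.3, URA7/MRPL16 35.1, RSM19/DBP6 34.8, MRPL8/COA3 28.1 and HDA2/MHR1 23.5.

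Cytosolic ribosomal protein genes had peaks of low fold enrichment. Of 77 with a divergent start 18 faced a summit (23.4%, 15.3 to 34), but their 16 peaks had a median of 2.58. Only 2 were at 4 or above, beside 60.4% of all divergent peaks. The 2 were IME1/RPL43B at 21, 177 bp from RPL43B, and RPS4A/YJR146W at 9.58. RPS28A/GLN4 had 3.81, MON1/RPS2 3.35 and YOR062C/RPL3 2.97. The duplicated pairs RPL13B/RPS16A and RPS16B/RPL13A, each of 2 ribosomal protein genes in divergent order, had nearly equal peaks of 2.56 (2.30 to 2.83) and 2.48 (2.22 to 2.76). A motif was found at 11 of the 16 peaks, and of the pair only at RPL13B/RPS16A. That peak alone had only G or C at the base 8 before the midpoint, and RPS4A/YJR146W had both kinds. The other peaks with a motif, IME1/RPL43B among them, had only A or T. Over all divergent peaks with only A or T the median was 3.70. The part of this base in the low values was not tested. RPL13A carries the anchor tag in this strain.

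Among these lists, genes for aminoacyl-tRNA synthetases and RNA polymerase subunits had the highest shares that faced a summit. Of 15 cytosolic synthetase genes with a divergent start 9 faced one (60.0%, 35.7 to 80.2), and 8 of the 9 peaks had a motif. TYS1/TFG1 had 20.0, and the next, RPS28A/GLN4, AIR1/THS1, BEM4/CDC60 and FRS2/GAT1, had 3.81, 3.77, 3.15 and 2.95. At 4 or above was 1 of the 9 peaks, beside 60.4% of all divergent peaks. Of 21 subunit genes of RNA polymerases I, II and III 12 faced a summit (57.1%, 36.5 to 75.5), from 11 peaks with a median of 4.86. At 4 or above were 6 of the 11 peaks, beside the same 60.4%. YNL115C/RPC19 had 29.9, RPC25/LTV1 21.5, RET1/PTP2 5.32, RPO31/RPT5 5.26 and NPT1/RPB10 5.09. RPA43/RPA190, where both genes encode subunits of RNA polymerase I, had 2.47 and no motif.

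Of 40 genes for polymerase II initiation factors and Mediator 9 faced a summit (22.5%, 12.3 to 37.5). MAE1/TFA1 had 37.1, SPE2/GAL11 22.8, TYS1/TFG1 20.0, RNA1/TAF9 4.15 and SRB2/NCP1 4.03. Splicing factor genes did so in 6 of 49 cases (12.2%, 5.73 to 24.2), with SWI4/LSM4 at 29.8, UTP8/SYF2 at 10.8, CWC2/NHP2 at 8.41, LSM3/MRPL4 at 4.97 and LPD1/SMX2 at 3.47. Proteasome subunit genes did so in 6 of 21 cases (28.6%, 13.8 to 50.0). FUI1/PRE7 had 21.2, NOP14/RPN5 17.3, PUP2/ENO1 16.8, RPN8/GPN2 11 and RPO31/RPT5 5.26, and 5 of the 6 peaks were at 4 or above, again beside 60.4% of all divergent peaks.

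In metabolism, 8 of 21 nuclear genes of respiration and the tricarboxylic acid cycle faced a summit (38.1%, 20.8 to 59.1). IDH1/NCE103 had 40.3, ATP18/TDA9 26.3, ANB1/CYC1 5.61, ARP8/LSC1 4.79 and LPD1/SMX2 3.47. Of 34 amino acid biosynthesis genes 10 did (29.4%, 16.8 to 46.2), with BET3/MET1 at 30.1, NOC4/ASN1 at 17.2, RTN1/LYS4 at 14.4, FLO9/GDH3 at 13.8 and ARG7/RIM9 at 6.48. Of 21 SEC genes of the secretory pathway 2 did (9.52%, 2.65 to 28.9), CTF18/SEC14 at 20.9 and SEC59 with the 4 low summits given above. The intervals of the synthetase, polymerase subunit, respiration, ribosome biogenesis and mitochondrial ribosomal protein lists lay above 17.3%. Those of the other 6 included it. These shares count every summit, weak ones included, and were not computed at 4 or above. At 4 or above were only 1 of 9 synthetase peaks, 6 of 11 polymerase subunit peaks and 4 of 8 respiration peaks. So were 12 of 17 ribosome biogenesis peaks and 9 of 13 mitochondrial ribosomal protein peaks. A region with a peak counts for both its genes, and the lists share regions. The lists were chosen with earlier results of these data known, and the intervals are not adjusted for the number of lists. These shares are therefore a description only.

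**Figure D5:**
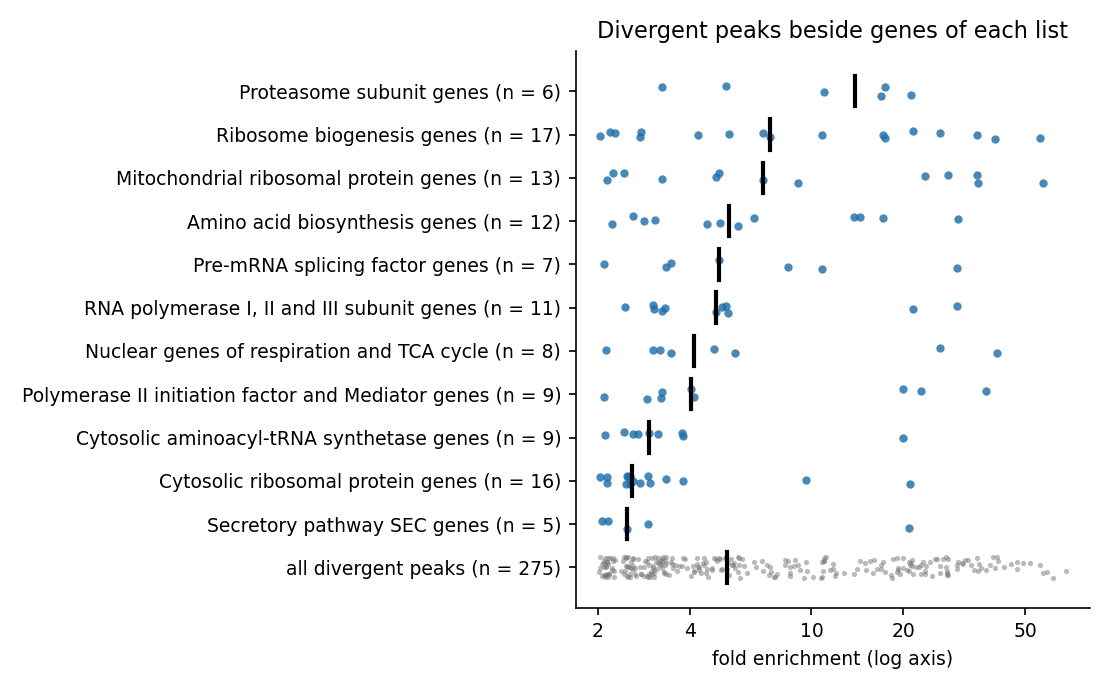
Fold enrichment on a log axis of the divergent peaks beside genes of each list (blue) above all 275 divergent peaks (grey, bottom row), with bars at the medians. The 16 peaks beside cytosolic ribosomal protein genes have a median of 2.58 and the 17 beside ribosome biogenesis genes of 7.32, while all 275 have one of 5.28.

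Of 41 divergent regions whose genes were both in these lists, 19 held a summit (46.3%, 32.1 to 61.3), beside 264 of all 1527 divergent regions (17.3%). As the lists were chosen with earlier results of these data known, this share is a description only. Beyond those already named, MRPS16/RRP12 had 6.95, RPB7/MRP20 4.86, PUP1/PET123 3.25, RPC82/QCR2 3.03, RPS29B/TSR1 2.76 and EHD3/KRS1 2.44. These pairs joined cytosolic and mitochondrial translation (EHD3/KRS1), ribosome assembly and the mitochondrial ribosome (RSM19/DBP6, MRPS16/RRP12) and polymerase subunits and the proteasome (RPO31/RPT5). The summit was nearly in the middle of the short ones: 132 and 136 bp from the start codons of RSM19 and DBP6, 158 and 142 bp from those of RPC25 and LTV1, 138 and 116 bp from those of TYS1 and TFG1, and 159 and 137 bp from those of RPS28A and GLN4.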

How the data were processed

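Abf1 ChIP-seq at t = 0 was used: 3 IP and 3 input libraries, pooled by the authors before peak calling. According to the submitters' processing notes, reads were aligned to sacCer3 with HISAT2 2.0.5 and peaks were called with MACS2 2.1.1.20160309; the methods add removal of duplicates by molecular identifiers, a q-value limit of 0.001 and a fold enrichment cutoff of 2. The deposited fold enrichment is a ratio of pileup to background, each with 1 added. The deposited −log10 p-value and −log10 q-value are from a Poisson test on the pooled fragments. Pooling hides the spread between replicates, and an interval may hold several summits (948 summits in 864 intervals).

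Summits were placed against the RefSeq annotation of R64, with 6002 ORFs and 275 tRNA genes. Solving the fold enrichment and p-value for the pileup gave whole fragments, within 0.01, at 941 of 948 peaks; intervals used these counts. The Abf1 matrix came from the best consensus match, up to 1 mismatch, within 100 bp of 403 summits at 4 or above (pseudocount 0.8), and a match scored at least 85% of its range. Windows were 201 bp. Shares have Wilson and medians exact binomial 95% intervals. The functions were tested on simulated data. Python 3.11.15, numpy 2.4.6, pandas 2.3.3 and scipy 1.17.1 were used.

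Named pairs were the 15 highest and 5 lowest divergent peaks, the 4 shortest and 4 longest regions, the 4 summits nearest to and the 4 farthest from a start codon, regions with 3 or more summits, up to 5 peaks per gene list and pairs with both genes in lists, the 5 highest without a motif and the 5 highest with 2 or more; others are said to be chosen later or illustrate a count. Members and lists were chosen with earlier results of these data known. The alternatives tried are given at the end.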

Additional observations from a re-analysis of the deposited data

How the results depend on the processing

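Of 51 medians, shares and differences recomputed under other choices, 40 stayed within the interval of the reported value and 11 left it. Only the differences between medians have a direction, and these kept their sign under each choice. The number of divergent peaks, which has no interval, was 234 to 273 under 5 other choices, against the 275 reported. With only peaks at a −log10 q-value of at least 50, 234 divergent peaks were left, with a median fold enrichment of 7.21, 70.9% at 4 or above, 94.4% with a motif and 15.0% of divergent regions occupied. With only peaks of at least 4, 10.7% of regions held a summit and 95.8% of peaks had a motif. The share with a motif was 93.8% at a threshold of 80%, 84.0% at 90% and 82.2% with the exact consensus. A line at 5 was reached by 52.0%. The motif midpoint in place of the summit gave a median of 176 bp to the nearer start codon. That last value covers only the 247 peaks with a motif, and the cause of its shift was not tested. Counting non-coding genes as neighbours gave 268 divergent peaks, 261 of them among the 275, and leaving out Ty ORFs 273. The difference between divergent and tandem medians ranged from −0.24 to −0.04 on the log2 scale. No paired analysis was possible because the peak list was called on pooled libraries, and no replicate could be left out for the same reason.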
